A study of Mus musculus with 12 samples.

Results

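YAP-TEAD target genes are genes that the coactivators YAP and TAZ switch on through the DNA-binding TEAD factors. The 6 genes described here are Ankrd1, Ccn1 (older symbol Cyr61), Ccn2 (older symbol Ctgf), Amotl2, Axl and Lats2, among 19938 genes measured. They were chosen by name as known targets of this pathway, with earlier results of these data known. Each was represented by the probe set annotated to its symbol alone. Each of the 6 had exactly 1 such probe set, so all 6 were measured and no filter on low values was applied. RNA came from mouse embryonic fibroblasts (MEFs), grown in 10% serum until passage 4 and then kept in 0.1% serum for 72 h. All 4 groups were treated in this way, and each held 3 samples on 1 array each. Rb1 S/S mutant cells had a matched Rb1 +/+ wild type (the S set), and Rb1 L/L mutant cells had another matched Rb1 +/+ wild type (the L set). How the S and L alleles alter the retinoblastoma protein is not stated in the labels, nor are the strain and age of the embryos. Each of the 12 samples carries its own code, whose meaning is not stated, so whether the samples of a group were separate embryos or cultures is not known. The p-values measure the spread between these samples, which may in part be technical.

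YAP and TAZ are held in the cytoplasm when the Hippo kinases phosphorylate them, and they enter the nucleus in spread, well-attached or mechanically loaded cells, where they bind TEAD factors. Ankrd1, Ccn1 and Ccn2 are the genes most often read as a measure of this activity, and serum itself activates the pathway in fibroblasts. Lats2, the kinase that phosphorylates YAP, and Amotl2, an angiomotin-type scaffold that binds YAP, are both inhibitors of the pathway and targets of it.

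The promoters are shown because the TEAD factors read a short DNA word. RefSeq windows of the GRCm38.p6 assembly, each from 250 bases before to 50 bases after an annotated start, were at hand for 5 of the 6 genes. The TEAD core, CATTCC or its reverse complement GGAATG, was searched on both strands, and it occurred in all 5 genes. It occurred in 14.7% of the 32851 windows of the table and in 16.6% of the 27025 genes with a window. The members were picked by name as TEAD targets, so this count describes them and tests nothing. Among the other YAP-TEAD targets listed, 2 of 10 genes with a window held the core. It was in 8 of 22 Hippo genes, a list that includes Lats2 and Amotl2, and in 6 of 13 genes of a list of SRF and MRTF genes with contractile targets. The sequences of Ankrd1, Ccn1, Amotl2 and Axl below run 5′ to 3′ over the 250 bases before the start, and that of Lats2 covers 30 bases around it, with the TEAD core in capitals.
Ankrd1, chr19:36119845-36120094, minus strand: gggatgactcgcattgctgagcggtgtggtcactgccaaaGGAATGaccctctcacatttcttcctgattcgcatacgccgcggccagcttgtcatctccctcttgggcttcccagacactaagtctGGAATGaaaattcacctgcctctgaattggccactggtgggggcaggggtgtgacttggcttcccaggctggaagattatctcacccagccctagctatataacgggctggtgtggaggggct
Ccn1, chr3:145649986-145650235, minus strand: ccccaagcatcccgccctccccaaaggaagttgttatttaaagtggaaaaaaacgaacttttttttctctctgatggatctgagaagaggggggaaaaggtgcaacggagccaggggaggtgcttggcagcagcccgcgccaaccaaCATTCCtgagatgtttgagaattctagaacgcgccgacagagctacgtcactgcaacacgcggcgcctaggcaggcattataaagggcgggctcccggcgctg
Amotl2, chr9:102717554-102717803, plus strand: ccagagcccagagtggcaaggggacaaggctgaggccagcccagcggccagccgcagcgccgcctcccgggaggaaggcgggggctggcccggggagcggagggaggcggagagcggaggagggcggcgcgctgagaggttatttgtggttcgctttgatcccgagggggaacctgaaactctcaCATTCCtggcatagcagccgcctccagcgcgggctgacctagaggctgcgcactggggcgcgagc
Axl, chr7:25788734-25788983, minus strand: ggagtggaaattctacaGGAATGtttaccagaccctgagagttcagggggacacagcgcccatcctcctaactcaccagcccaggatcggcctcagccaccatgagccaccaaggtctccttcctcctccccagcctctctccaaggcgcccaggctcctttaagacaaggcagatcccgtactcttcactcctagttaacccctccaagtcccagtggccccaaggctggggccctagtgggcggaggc
Lats2, chr14:57746102-57746131, minus strand: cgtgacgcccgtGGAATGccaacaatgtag

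Ankrd1 alone held 2 copies of the core, at 210 to 205 and at 123 to 118 bases before the start. The single copies lay 103 to 98 bases before the start in Ccn1, 65 to 60 in Amotl2 and 233 to 228 in Axl. In Lats2 the copy lay 5 to 10 bases after the start of the first of its 2 annotated windows, and the second window held none. The CArG box, the site of the serum response factor SRF, was in none of the 5 genes, in 5 of the 13 SRF and MRTF genes, and in 1.63% of all windows. The AP-1 site TGANTCA was also in none of the 5 and in 7.81% of all windows. A TATA box, TATAAA or TTTATA, was found in Ccn1, 25 to 20 bases before the start, and in 13.6% of all windows. Only these exact words were searched, so the similar TATATAA near the end of the Ankrd1 sequence was not counted. A CArG box can contain the letters of the TATA box, and the other motifs contain none of each other.

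**Figure D1:**
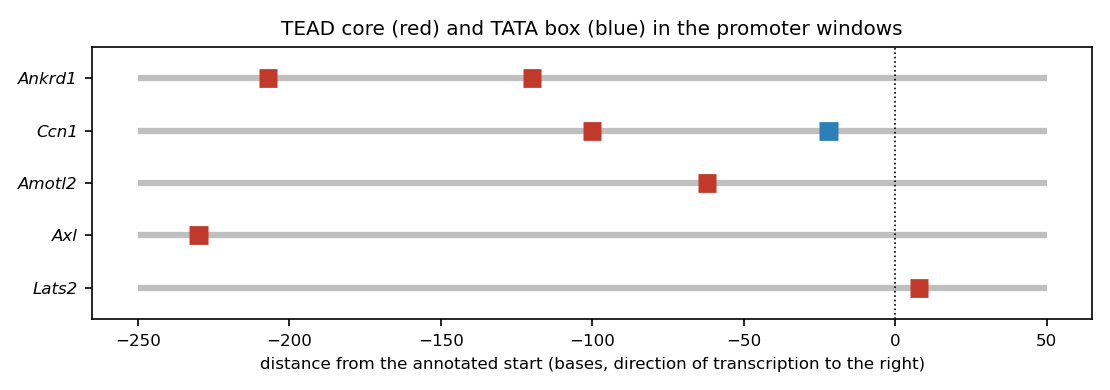
Positions of the TEAD core (red squares) and the TATA box (blue square, exact words TATAAA or TTTATA only) in the promoter windows of 5 target genes, as distance in bases from the annotated start, with the direction of transcription to the right. Ankrd1 has 2 copies of the core, and the copy of Lats2 is the only one after the start.

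The arrays were even in overall level, with log2 medians of 6.85 to 7.01. Precision is limited by having 3 arrays a group. One array differed from the rest, wild-type array 1 of the S set. Its interquartile range was 3.10 against at least 3.39 on the other 11 arrays, and its correlations with them were 0.955 to 0.974 where those 11 correlated at 0.977 or more among themselves. Array 1 of the L-set wild type and array 1 of L/L were called male in pattern, because X-linked Xist did not exceed Y-linked Eif2s3y there. On the other 10 arrays Xist exceeded Eif2s3y, which was called a female pattern. The 3 Y-linked genes read 3.82 to 5.51 on those 10 arrays, the level of a probe set without a target, and every value of the 6 members lay above that range. The 10 fibroblast markers averaged 11.85 to 12.13 on each array. Means per array were 6.35 to 6.93 for 6 endothelial markers, 6.72 to 7.20 for 6 epithelial markers and 6.45 to 7.05 for 6 skeletal muscle markers. Single markers of these lists read up to 9.06, 8.61 and 9.08, in that order. Rb1 RNA was 8.34, 8.83 and 8.89 in the S-set wild type and 9.72, 9.58 and 9.35 in S/S, a difference of 0.87 (adjusted p = 0.0976). The L-set wild type had 9.23, 9.05 and 8.61 and L/L had 9.39, 9.36 and 9.23, a difference of 0.36 (adjusted p = 1).

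In S/S cells the means of all 6 target genes lay above those of the matched wild type, where 42.4% of all genes did. After quantile normalization Axl was the exception, at -0.043. Ankrd1 differed most, at 1.96-fold, and Ccn1, Ccn2, Amotl2 and Lats2 lay 1.19-fold to 1.28-fold above wild type. None of the 6 passed the test, which required an adjusted p under 0.05 in limma, a linear model with moderated variances. Over all genes 0.12% passed in this comparison. Without adjustment 3 of the 6 members, Ankrd1, Ccn1 and Lats2, had a p under 0.05, against 10.1% of all genes. The median difference of the 6 was 0.29 on the log2 scale, beside -0.04 over all genes. Dim genes are included in that median and in the 42.4%. Among genes with a mean of at least 6, the median was -0.006. The share of these brighter genes with a higher mean is not given. Array 1 of this wild type, whose interquartile range was smallest, read lowest in its group for every member. Dropping it gave a median of -0.006 over all genes. The members then had 0.82 (Ankrd1), 0.25 (Ccn1), 0.16 (Ccn2), 0.14 (Amotl2), 0.13 (Lats2) and -0.05 (Axl).

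Ankrd1 encodes a stretch-responsive ankyrin repeat protein of muscle and other mechanically loaded cells. Its log2 values were 7.29, 7.56 and 7.95 in the S-set wild type and 8.54, 8.86 and 8.32 in S/S. The lowest S/S array exceeded the highest wild-type array. The difference was 0.97 (SE 0.24, 95% interval 0.46 to 1.49), which corresponds to 1.96-fold with an interval of 1.37 to 2.80. Its unadjusted p was 0.00126 and its adjusted p 0.192, and 99.8% of all genes had a lower S/S difference. Without wild-type array 1 the difference was 0.82, and leaving out each array in turn kept it between 0.82 and 1.15. With arrays weighted by their agreement with the model it was 1.00 and passed (adjusted p = 0.028), the only one of 23 settings in which it did. Under that weighting 2.08% of all genes passed.

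Ccn1 encodes a secreted matricellular protein that binds integrins. It was 11.81, 11.86 and 11.82 in wild type against 11.99, 12.11 and 12.17 in S/S, again with no overlap. The difference of 0.26 (SE 0.10, interval 0.05 to 0.47) was 1.19-fold (unadjusted p = 0.0209, adjusted p = 0.415). It was small in size but rested on close replicates: the 3 wild-type arrays had an SD of 0.03. Thus 2 of the 6 members had S/S arrays wholly above wild type, where 5.49% of all genes did.

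Ccn2, a related matricellular protein known for promoting fibrosis, was 11.78, 12.38 and 12.37 in wild type against 12.27, 12.64 and 12.67 in S/S. The lowest S/S array lay below the 2 higher wild-type arrays, so the groups overlapped. Its difference of 0.36 (SE 0.18, interval -0.04 to 0.75) had an adjusted p of 0.522, and without wild-type array 1 it was 0.16.

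The inhibitors of the pathway showed the same order of means. Lats2 was 9.71, 10.21 and 10.34 in wild type against 10.31, 10.50 and 10.40 in S/S. Only the first S/S array, at 10.31, fell within the wild-type range. The difference of 0.32 (SE 0.14, interval 0.01 to 0.62) had an unadjusted p of 0.0428 and an adjusted p of 0.482, and it was 0.13 without wild-type array 1. Lats2 and Rb1 both lie on chromosome 14, and whether this bears on the difference was not tested. Amotl2 was 9.67, 9.97 and 10.14 in wild type against 9.84, 10.29 and 10.46 in S/S, with overlap. Its difference was 0.27 (SE 0.16, interval -0.08 to 0.62, adjusted p = 0.558), 0.14 without wild-type array 1 and 0.45 without S/S array 1. Leaving out S/S array 3 also gave 0.14.

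Axl, a receptor tyrosine kinase for the ligand Gas6, was 11.19, 11.37 and 11.36 in wild type against 11.06, 11.44 and 11.46 in S/S. The wild-type range lay inside the S/S range, and the means differed by 0.01 (SE 0.12, interval -0.24 to 0.26, adjusted p = 0.974). In fold terms the interval ran from 0.849 to 1.20. The sign of this difference was negative without wild-type array 1, at -0.05.

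**Figure D2:**
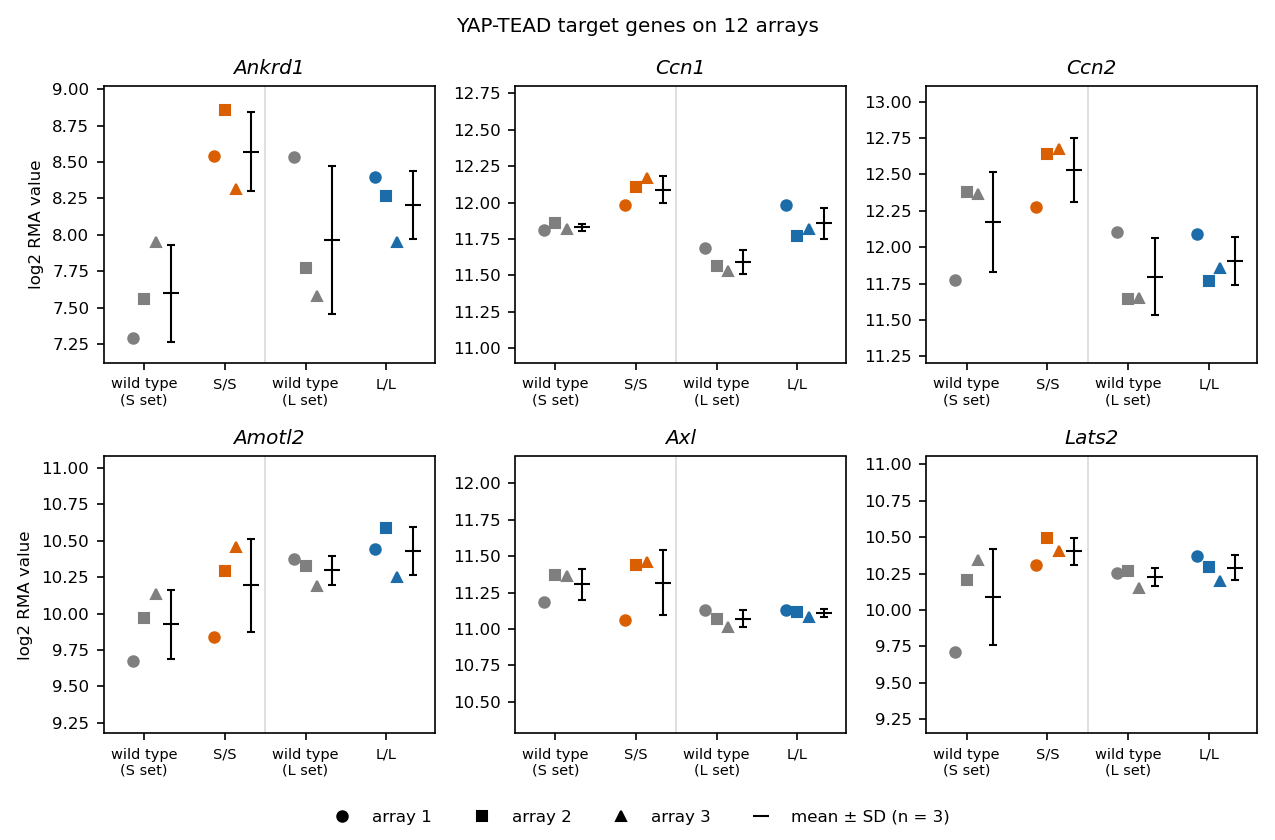
Log2 RMA values of the 6 target genes on 12 arrays, 1 panel per gene with an equal span of the vertical axis; circles, squares and triangles are arrays 1, 2 and 3 of a group, and the bar beside them is the mean ± SD (n = 3). Ankrd1 and Ccn1 in S/S and Ccn1 in L/L lie wholly above their wild types, and wild-type array 1 of the S set is the lowest of its group for every gene.

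Markers of another cell type differed alongside these genes. All 8 macrophage and blood cell markers had higher means in S/S than in wild type (median difference 0.71), where 42.4% of all genes did. For 7 of 8 the S/S arrays lay wholly above wild type, against 5.49% of all genes. None of the 8 markers passed the test, although 1 had an unadjusted p under 0.05, against 10.1% of all genes. Their mean per array was 7.45 to 7.80 in the S-set wild type and 8.31 to 8.41 in S/S. It ranged over 7.04 to 8.97 in the L-set wild type and 6.72 to 8.23 in L/L, where 7 of 8 means were below wild type. On the 12 arrays the leukocyte antigen gene Ptprc read 5.94 to 7.16, the integrin gene Itgam 5.80 to 7.33, and the lysosomal glycoprotein gene Cd68 read 8.18 to 11.27. Of the 6 endothelial markers, 2 were higher and 4 lower in S/S, with differences from -0.18 to 1.62. None of them passed in S/S, and 1 had an unadjusted p under 0.05, against 10.1% of all genes. Between the wild types 1 of the 6 passed, higher in the L set, against 8.71% of all genes. The part of macrophage, blood or endothelial cells in the differences of the target genes was not tested. In bulk samples, fewer cells of a type and less RNA per cell cannot be told apart.

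In L/L cells the 6 target genes were also all higher in mean than in their wild type, by 1.03-fold to 1.20-fold, where 55.9% of all genes were higher. Again none passed in limma, where 0.0401% of all genes passed, and 1 of 6, Ccn1, had an unadjusted p under 0.05, against 3.27% of all genes. The median difference of the 6 was 0.12, beside 0.015 over all genes. Ccn1 was 11.68, 11.56 and 11.53 in wild type, and L/L had 11.98, 11.77 and 11.82. The groups did not overlap, as in 9.71% of all genes, and the difference was 0.26 (SE 0.10, interval 0.05 to 0.48, unadjusted p = 0.0184, adjusted p = 1). Array weights gave 0.29 and a pass (adjusted p = 0.045), with 1.69% of all genes passing.

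Ankrd1 was 8.54, 7.77 and 7.58 in the L-set wild type and 8.40, 8.27 and 7.95 in L/L. Wild-type array 1, of the male pattern, was the highest of the 6 and overlapped L/L. The difference was 0.24 (SE 0.24, interval -0.27 to 0.76, adjusted p = 1), and it was 0.53 without that array and 0.05 without wild-type array 3. Ccn2 was 12.10, 11.64 and 11.65 in wild type, and L/L had 12.09, 11.77 and 11.86, which differed by 0.11 (SE 0.18, adjusted p = 1). This difference was 0.26 without wild-type array 1 and 0.01 without L/L array 1, both of the male pattern.

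Amotl2, Lats2 and Axl overlapped between L/L and wild type. For Amotl2 the wild-type values were 10.38, 10.32 and 10.19 against 10.44, 10.59 and 10.25 in L/L, a difference of 0.13 (interval -0.22 to 0.48) that ran from 0.05 without L/L array 2 to 0.22 without L/L array 3. Lats2 was 10.25, 10.27 and 10.15 in wild type against 10.37, 10.30 and 10.20 in L/L, a difference of 0.06 (interval -0.24 to 0.37). It ranged from 0.02 without L/L array 1 to 0.11 without L/L array 3. Axl was 11.13, 11.07 and 11.01 in wild type against 11.13, 11.12 and 11.08 in L/L, a difference of 0.04 (interval -0.21 to 0.29), and 0.01 without wild-type array 3. Each of these 3 had an adjusted p of 1.

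Whether the mutants differed from each other was tested as the L/L effect minus the S/S effect. None of the 6 members passed, 0.015% of all genes did, and 1 member had an unadjusted p under 0.05, against 6.5% of all genes. That member was Ankrd1, whose L/L effect was smaller by 0.73 (interval -1.46 to -0.003, unadjusted p = 0.0492, adjusted p = 0.764). Without L-set wild-type array 1 the effects differed by -0.44. Ccn1 had nearly equal effects, with a difference of 0.01 and an interval of -0.29 to 0.31. For Ccn2 it was -0.25 (interval -0.81 to 0.31), for Lats2 -0.25 (-0.68 to 0.18), for Amotl2 -0.14 (-0.63 to 0.36) and for Axl 0.03 (-0.32 to 0.38). Without S-set wild-type array 1, Ccn2 was at -0.05 and Lats2 at -0.06. Amotl2 was at -0.315 without S/S array 1 and at -0.006 without S/S array 3, and Axl at -0.10 and 0.10. These intervals are wide, and a p that misses the threshold does not show that S/S and L/L act alike.

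**Figure D3:**
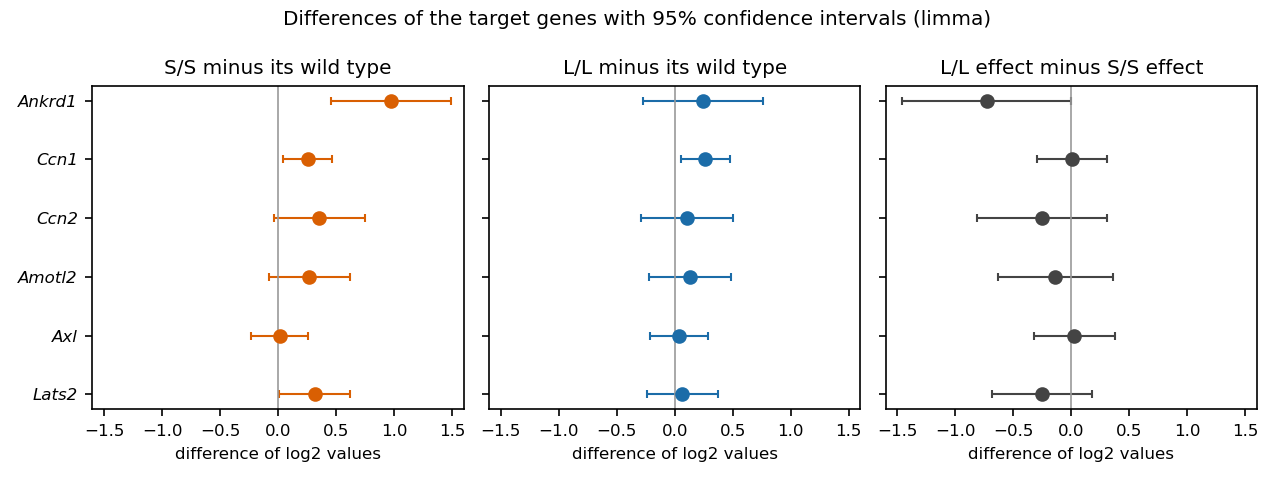
Log2 differences of the 6 target genes with 95% confidence intervals from limma (points and bars), for each mutant minus its matched wild type and for the L/L effect minus the S/S effect. All points of both mutants lie above 0, and the interval of Ankrd1 in S/S, 0.46 to 1.49, is the one farthest from 0.

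The wild types themselves differed between the sets, with 8.71% of all genes passing. None of the 6 members passed in limma, and 2 of 6, Ccn1 and Amotl2, had an unadjusted p under 0.05, against 23.7% of all genes. Ccn1 was lower in the L set by 0.24 (adjusted p = 0.156), Ccn2 by 0.38 (adjusted p = 0.236) and Axl by 0.24 (adjusted p = 0.234). Amotl2 was higher there by 0.37 (adjusted p = 0.186), Ankrd1 by 0.37 (adjusted p = 0.384) and Lats2 by 0.14 (adjusted p = 0.582). Ccn1 and Axl were lower and Amotl2 was higher without overlap, and 27.6% of all genes did not overlap. Without S-set wild-type array 1, the Ccn2 difference was -0.57 and passed (adjusted p = 0.0372), as did 10.4% of all genes, that of Amotl2 was 0.24, and that of Lats2 was -0.05. The Ankrd1 difference was 0.08 without L-set wild-type array 1.

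The order of the group means differed between the genes. For Ccn1 it was S/S at 12.09 ± 0.09 (SD, n = 3), L/L at 11.86 ± 0.11, S-set wild type at 11.83 ± 0.03 and L-set wild type at 11.59 ± 0.08, and only L/L and the S-set wild type overlapped as neighbours. Ankrd1 ran from S/S at 8.57 ± 0.27 over L/L at 8.21 ± 0.23 and L-set wild type at 7.96 ± 0.51 to S-set wild type at 7.60 ± 0.33, with every neighbour overlapping. Ccn2 and Axl were highest in both groups of the S set: S/S, S-set wild type, L/L and L-set wild type had means of 12.53, 12.17, 11.90 and 11.80 for Ccn2, and 11.32, 11.31, 11.11 and 11.07 for Axl. For Axl the S-set wild type lay wholly above L/L, but S/S array 1, at 11.06, lay below every L/L array. The neighbours of Ccn2 all overlapped. Amotl2 had the opposite order of sets, with 10.43 in L/L, 10.30 in L-set wild type, 10.20 in S/S and 9.93 in S-set wild type, all neighbours overlapping. Lats2 ran over S/S at 10.40, L/L at 10.29, L-set wild type at 10.23 and S-set wild type at 10.09, also with overlap throughout.

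Replicates of Ankrd1 varied more than those of most genes and replicates of Ccn1 less. The pooled SD within groups was 0.352 for Ankrd1, higher than in 96.0% of genes, and 0.083 for Ccn1, higher than in 5.5%. It was 0.257 for Ccn2, 0.221 for Amotl2, 0.18 for Lats2 and 0.127 for Axl, beside a median of 0.167 over all genes.

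The target genes were also compared with each other across the arrays. All 15 pairs had a Pearson correlation above 0, in all 12 arrays, in the 6 arrays of each set, and as deviations from the group means. Each pair was also taken without the 2 arrays farthest from the median of its gene listed first in the opening paragraph. Of the 15 values so obtained, 5 were below 0: the pairs of Amotl2 given below, Ankrd1 with Axl (-0.0587) and Axl with Lats2 (-0.0122). Because these arrays share groups, sets and arrays of unusual quality, the correlations describe these samples. Over 15 pairs, 3 passed a permutation test of r with adjustment: Ccn2 with Axl, Ccn1 with Ccn2, and Ankrd1 with Lats2. That test shuffled the 12 arrays without regard to group or set. Its p can therefore be small for any genes that share a shift between groups, sets or single arrays. How many pairs over all genes are positive or pass was not computed. Ccn2 and Axl had r = 0.849 (permutation p = 0.00058, adjusted p = 0.00435, Spearman's rho 0.776 with permutation p = 0.00444, adjusted p = 0.0247). Their r was 0.693 without the 2 arrays farthest from the median of Ccn2, 0.702 within the S set and 0.783 within the L set. Ccn1 and Ccn2 had r = 0.831 (permutation p = 0.00108, adjusted p = 0.0054, rho 0.853 with permutation p = 0.00082, adjusted p = 0.0123), and 0.664 without the 2 arrays farthest from the median of Ccn1. Within the sets that pair had 0.756 and 0.694. Ankrd1 and Lats2 had r = 0.773 (permutation p = 0.00053, adjusted p = 0.00435, rho 0.769 with permutation p = 0.00494, adjusted p = 0.0247), and 0.63 without the 2 arrays farthest from the median of Ankrd1. Within the sets it had 0.831 and 0.68. Of the 6 within-set values of these 3 pairs, none passed an exact permutation test over 6 arrays after adjustment.

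The correlations of Amotl2 differed between the pooled arrays and the sets. Pooled over 12 arrays its r was 0.0285 with Ccn1 (permutation p = 0.93), 0.0261 with Ccn2 (p = 0.937) and 0.0284 with Axl (p = 0.93), and rho was 0.00699, -0.035 and 0.119 (permutation p = 0.991, 0.921 and 0.717). The 2 arrays left out next were those farthest from the median of Ccn1, of Ccn2 and of Amotl2, in that order. Without them these r were -0.267, -0.26 and -0.222. Within the S set these were 0.745, 0.92 and 0.837, and within the L set 0.513, 0.321 and 0.792. Between the wild types the means of Amotl2, Ankrd1 and Lats2 were higher in the L set, and those of Ccn1, Ccn2 and Axl were lower. Whether this bears on the correlations of Amotl2 was not tested. Within the L set alone 1 pair passed, Ankrd1 with Axl at r = 0.957 (exact permutation p = 0.00278, adjusted p = 0.0417), and the same pair had 0.173 within the S set. Axl ran only from 11.01 to 11.13 on the L-set arrays. Both genes were highest on the 2 arrays of male pattern, and whether this bears on their correlation was not tested.

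**Figure D4:**
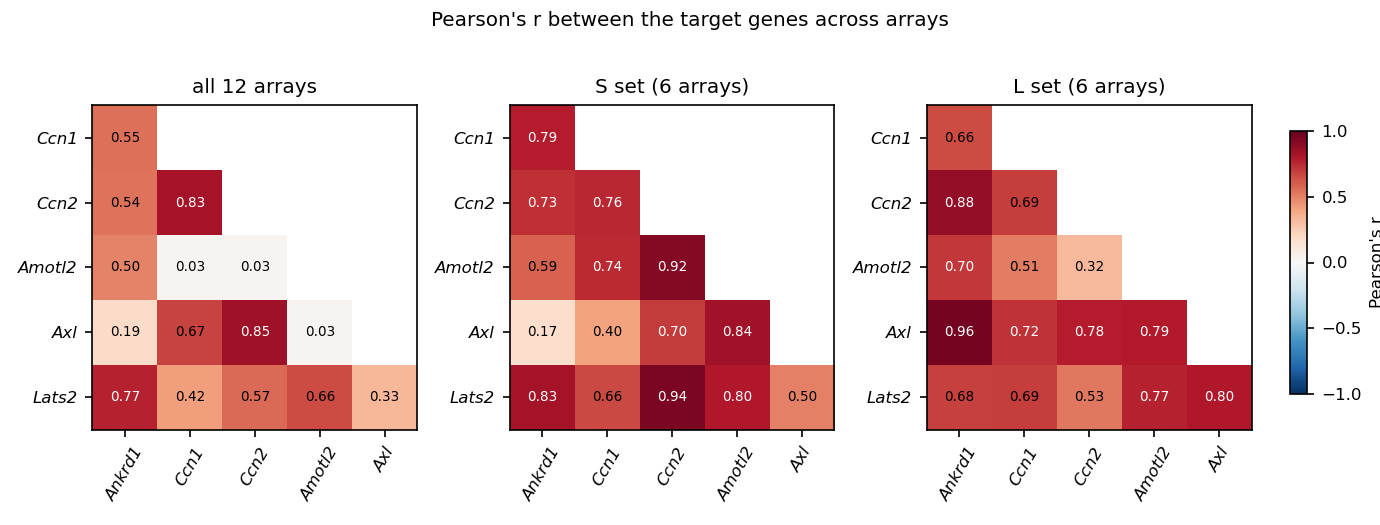
Pearson's r between each pair of target genes over all 12 arrays, the 6 arrays of the S set and the 6 arrays of the L set, with colour from -1 (blue) to 1 (red). Every value is positive, and the pairs of Amotl2 with Ccn1, Ccn2 and Axl are near 0 over 12 arrays but 0.321 to 0.92 within a set.

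Among 14750 genes with a mean of at least 6, the 3 with the highest r over 12 arrays were taken for each member. They were Nabp1 (0.938), Dgkh (0.938) and Gask1b (0.936) for Ankrd1, and Btbd19 (0.949), Epha2 (0.938) and Specc1 (0.936) for Ccn1. For Ccn2 they were Dglucy (0.964), Fads3 (0.964) and Nes (0.952), and for Amotl2 Kif1c (0.961), Bcl2l1 (0.956) and Gsn (0.954). Lats2 was nearest to Itga4 (0.966), Mast4 (0.959) and Snx16 (0.952). Axl was nearest to Supt5 (0.959), Coro1c (0.956) and Psat1 (0.955), of which Supt5 and Psat1 had only 0.40 and 0.34 within the L set. No member was among the 3 nearest of another.

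The families of the members did not share one direction. Of the 6 CCN genes, which include Ccn1 and Ccn2, S/S had 3 with a higher mean and 3 with a lower one, and none passed. Ccn4 was 11.25, 11.44 and 11.61 in wild type against 11.88, 11.91 and 11.74 in S/S, a difference of 0.42 (adjusted p = 0.224). Ccn5 was 10.67, 10.88 and 10.85 in wild type against 10.16, 10.26 and 10.68 in S/S, a difference of -0.43 (adjusted p = 0.315). Ccn5 was also the only CCN gene that passed between the wild types, where it fell by 0.70 in the L set (adjusted p = 0.00777). In L/L, Ccn4 differed by -0.08 and Ccn3 by -0.12, each with an adjusted p of 1. Ccn6 was at -0.31 in S/S (adjusted p = 0.439).

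Axl belongs to the TAM receptors with Tyro3 and Mertk, and Gas6 and Pros1 encode their ligands. In S/S these other 4 lay between -0.12 and 0.13, and none passed. Tyro3 was 7.69, 7.69 and 7.92 in the L-set wild type and 8.14, 8.20 and 8.13 in L/L, without overlap, a difference of 0.39 (unadjusted p = 0.00262, adjusted p = 0.484). Gas6 was 11.62, 11.79 and 11.91 in the S-set wild type and 11.16, 11.36 and 11.33 in the L-set wild type, where it fell by 0.49 (adjusted p = 0.0276). Axl differed in the same direction between these groups, by -0.24, and did not pass. Ankrd2 and Ankrd23, the other muscle ankyrin repeat genes, differed by -0.19 and 0.10 in S/S (adjusted p = 0.578 and 0.851), beside 0.97 for Ankrd1.

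The factors that act on the target genes did not pass in either mutant. Yap1 was 9.82, 10.21 and 10.16 in the S-set wild type and 10.15, 10.17 and 10.05 in S/S, a difference of 0.07 (adjusted p = 0.832), and 0.05 in L/L. Wwtr1, which encodes TAZ, was at 0.17 in S/S (adjusted p = 0.592) and -0.02 in L/L. Of the 10 YAP, TAZ, TEAD and VGLL genes, 6 were higher in each mutant, with medians of 0.10 in S/S and 0.05 in L/L. Over all genes 42.4% were higher in S/S and 55.9% in L/L. Vgll3, a cofactor of TEAD, had the smallest p of the list in S/S, at 0.34 (adjusted p = 0.365). The TEAD genes lay between -0.09 and 0.23 in S/S. Tead3 (-0.43, adjusted p = 0.0541) and Vgll4 (-0.39, adjusted p = 0.0583) had the smallest p between the wild types.

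Of the Hippo kinases and upstream inputs, 25 of 27 were measured, Lats2 and Amotl2 among them, and none passed in a mutant. In S/S 18 were higher and 7 lower (median 0.19), where 42.4% of all genes were higher, and 7 had an unadjusted p under 0.05, against 10.1% of all genes. In L/L 12 were higher and 13 lower (median -0.003). Mob1b, a coactivator of the LATS kinases, was 9.26, 9.46 and 9.63 in wild type against 9.96, 10.10 and 9.67 in S/S, a difference of 0.46 (adjusted p = 0.304). Wwc2, a scaffold of the LATS kinases, was at 0.40 (adjusted p = 0.35), Frmd6 at -0.36 (adjusted p = 0.387) and Lats1 at 0.26 (adjusted p = 0.534). Between the wild types 5 of the 25 passed, against 8.71% of all genes. Rassf1, Mob1a and Mob1b rose by 0.64, 0.82 and 0.52 in the L set, and Nf2 and Frmd6 fell by 0.54 and 0.43.

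Of 16 other YAP-TEAD targets, 10 were higher and 6 lower in S/S (median 0.10), where 42.4% of all genes were higher, and none passed. The smallest p belonged to Rbms3 (0.38, adjusted p = 0.315), Tgfb2 (0.49, adjusted p = 0.33), Crim1 (0.76, adjusted p = 0.365) and Igfbp3 (-0.30, adjusted p = 0.407). Crim1 was 9.41, 10.25 and 10.50 in wild type against 10.67, 11.04 and 10.74 in S/S, with array 1 far the lowest. In L/L 9 were higher and 7 lower (median 0.02), where 55.9% of all genes were higher. In the wild-type comparison Gadd45a passed as higher in the L set, by 0.39. Ccdc80, Foxf2 and Dock5 passed as lower there, by 0.68, 0.49 and 0.40. Over all genes 8.71% passed. Of the 16 targets, 6 were higher and 10 lower in the L set, with differences from -0.68 to 0.70.

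SRF and its coactivators of the MRTF family also respond to tension and serum. In that list, 14 of 16 genes were higher in S/S (median 0.13), where 42.4% of all genes were. In L/L 15 of 16 were higher (median 0.15), where 55.9% of all genes were. None passed in either mutant. At an unadjusted p under 0.05 were 1 in S/S and 2 in L/L, against 10.1% and 3.27% of all genes. The smallest p were those of the LIM protein gene Fhl2 in S/S, at 0.32 (adjusted p = 0.396), and of calponin, Cnn1, in L/L, at 0.52 (adjusted p = 0.481). Between the wild types 6 of the 16 passed, against 8.71% of all genes. All 6 fell in the L set: Actg2 by 0.94, Cnn1 by 0.75, Mrtfa by 0.64, Fhl1 by 0.58, Srf by 0.49 and Myl9 by 0.42. Of 14 proliferation genes measured, 11 were lower in S/S (median -0.19, none passing) and 12 higher in L/L (median 0.29), where the replication licensing gene Mcm6 rose by 1.17 (adjusted p = 0.0308). Of the same 14 genes 7 passed between the wild types, against 8.71% of all genes, and all 7 were lower in the L set.

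**Figure D5:**
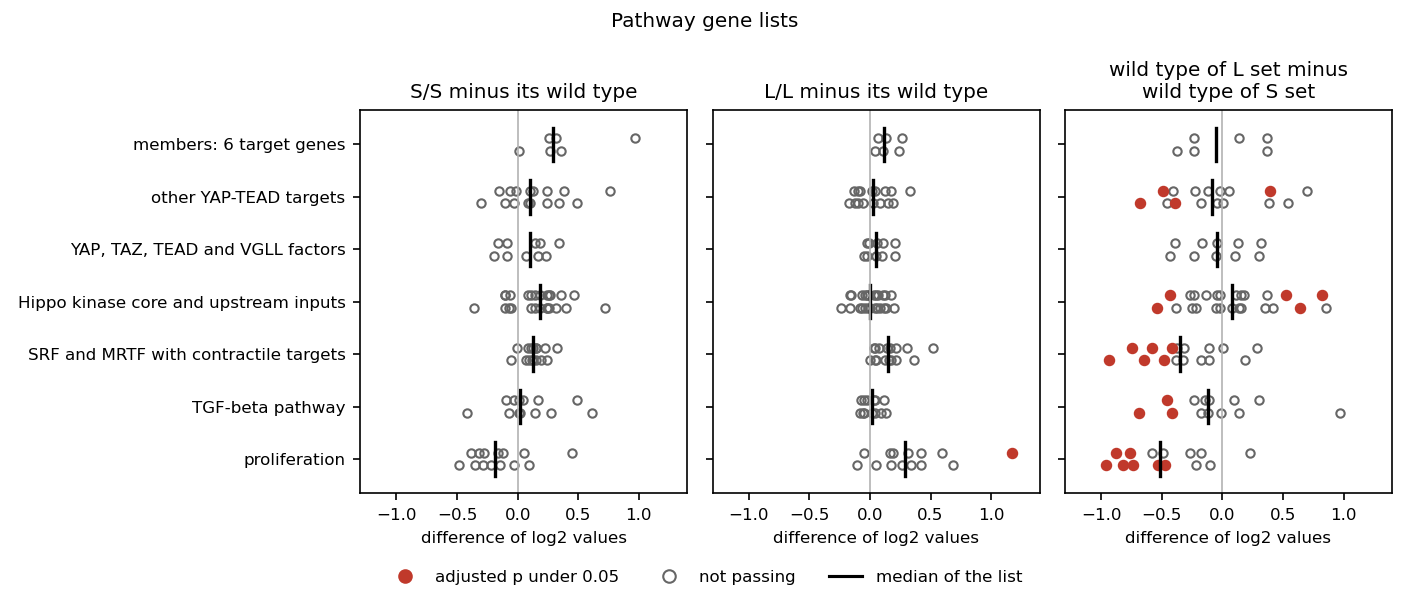
Log2 differences of every measured gene of 7 lists in the S/S, L/L and wild-type comparisons; each circle is a gene, filled red where the adjusted p was under 0.05, and the vertical bar is the median of the list. The 6 target genes lie to the right of 0 in both mutants without a red circle (Axl in S/S lies left of it after quantile normalization), and in the mutants the proliferation gene Mcm6 is the only one that passed.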

How the data were processed

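RNA abundance in 12 fibroblast samples was read on Affymetrix Mouse Gene 1.0 ST arrays. The deposited values are log2 RMA values, made with Partek per the series' design text. Its version, the arrays normalized together and the genome build are not given in the sources used here. Values ran from 2.43 to 14.67, which fits the log2 scale. Of 35556 probe sets, 21789 had 1 symbol, 1621 several and 12146 none. Each gene was read from its single-symbol probe set of highest mean, giving 19938 genes with no filter on dim values. The 6 members and the 16 gene lists were chosen with earlier results of these data known, and 151 of 155 list entries were measured; the others were not analysed here.

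Means of the 4 groups were estimated from all 12 arrays in one fit (limma 3.58.1, R 4.3.3; 8 residual and 5.19 prior degrees of freedom). Tests were two-sided, with Benjamini-Hochberg adjustment over all genes and a threshold of 0.05. The procedure was tested on simulated data. Correlations used two-sided permutation tests (100000 permutations, or all 720 for 6 arrays), with adjustment over 15 pairs. Named genes were the members, Rb1, and, of each pathway list, those passing in a comparison or, where fewer than 4, those of smallest p up to 4. The 3 genes most like each member were also named. Further genes (Yap1, Wwtr1, Lats1, the other TEAD genes, Ptprc, Itgam and Cd68) were named after their values were seen. Array weights, a replicate block, other normalization, probe set and variance choices, and arrays left out were tried as alternatives.

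Chromosomes and promoter sequences came from RefSeq tables of GRCm38.p6, in which no promoter window of Ccn2 was found.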

Additional observations from a re-analysis of the deposited data

How the results depend on the processing

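Each group had 3 arrays, and no member's difference could be told from that spread after adjustment over all genes. Of the members' differences recomputed under each alternative, 487 of 516 kept their direction and side of the threshold, 11 newly passed and 18 turned sign. Of 2227 values of the other named genes, 2039 kept both, 33 newly passed, 136 no longer passed and 19 turned sign. Many alternatives, such as leaving out an array outside the comparison or changing the variance estimate, cannot alter a difference. The share that kept its direction was therefore in large part fixed in advance, and it is not a measure of robustness.

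Among the 6 members, 1 passed in S/S and 1 in L/L with array weights, where 2.08% and 1.69% of all genes passed. Between the wild types 4 passed with array weights (Ccn1, Ccn2, Amotl2 and Axl; 32.7% of all genes), 2 with the replicate block (Ccn2 and Amotl2; 13.4%), 2 without the pair of S-set arrays numbered 1 (Ccn2 and Axl; 14.4%), and 0 to 1 when each array was left out in turn. The numbers do not show pairing throughout: same-numbered arrays deviated together with r of 0.388, 0.475 and -0.122 in the S set and 0.601, 0.058 and 0.359 in the L set. Under the block 37 genes passed in S/S and 5 in L/L.

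Differences close to 0 turned sign, and none of them passed on either side. Under quantile normalization these were Axl in S/S (-0.043), Mertk in L/L (-0.006) and between the wild types (-0.001), and Ankrd23 in L/L (-0.006). Without the arrays of male pattern they were Mertk (-0.011) and Ankrd2 (0.007) in L/L and Ccn1 in the difference of the effects (-0.009). Without the pair of S-set arrays numbered 1 they were Ccn1 (-0.035) and Axl (-0.041) in the difference of the effects, and Lats2 (-0.049) and Ankrd2 (0.055) between the wild types. Array weights put Ankrd2 at 0.094 between the wild types. With each array left out in turn, S/S differences ran from -0.057 to 0.141 for Axl, -0.298 to 0.169 for Pros1 and -0.073 to 0.342 for Ankrd23. In L/L they ran from -0.101 to 0.170 for Mertk and -0.053 to 0.103 for Ankrd23, and in the difference of the effects from -0.055 to 0.052 for Ccn1 and -0.101 to 0.097 for Axl. Between the wild types they ran from -0.049 to 0.265 for Lats2, -0.098 to 0.154 for Mertk and -0.133 to 0.055 for Ankrd2.

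Counts over all genes moved more: 24 in S/S became 2 to 38 with 1 array left out and 415 with array weights. In L/L 8 became 2 to 26 and 336, in the difference of the effects 3 became 3 to 21 and 293, and between the wild types 1736 became 525 to 2078 and 6520, with 2664 under the block. Without the pair of S-set arrays numbered 1, 3 genes passed in S/S, 42 in L/L, 8 in the difference of the effects and 2870 between the wild types. Without the arrays of male pattern 37 passed in S/S, 2 in L/L and 304 between the wild types. With each set fitted alone 44 passed in S/S and 5 in L/L, and after quantile normalization 8 in the difference of the effects and 2627 between the wild types. The cause was not tested.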

Other observations

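The transforming growth factor beta pathway, a known inducer of Ccn2 and other matrix genes, was measured by 13 of 14 listed genes. In S/S 9 were higher and 4 lower (median 0.02), and in L/L 7 were higher and 6 lower (median 0.02). None passed in limma, with 1 and 0 at an unadjusted p under 0.05. Over all genes 42.4% and 55.9% were higher, and 10.1% and 3.27% had such a p. Tgfb2, which the list shares with the YAP-TEAD targets, was 9.98, 10.02 and 10.14 in the S-set wild type and 10.61, 10.50 and 10.49 in S/S, without overlap. S/S arrays lay wholly above wild type for 5.49% of all genes. Between the wild types 3 of the 13 passed, against 8.71% of all genes, and all 3 were lower in the L set. The ligands Tgfb1 and Tgfb3 and the receptor Tgfbr2 fell by 0.69, 0.42 and 0.46 (adjusted p = 0.0368, 0.0397 and 0.0252). The receptor gene Tgfbr1 went the other way, by 0.97, and did not pass (adjusted p = 0.0581). Of the 13 genes, 4 were higher and 9 lower in the L set. Ccn2 had the same direction between the wild types and did not pass.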
